A study of Mus musculus with 18 samples.

Results

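Cadherins and protocadherins were followed in mouse embryonic stem cells and their neuronal derivatives with normal or reduced hypoxanthine phosphoribosyltransferase (HPRT). The members are the 93 gene symbols of the array annotation made of Cdh and a number, of Pcdh with any ending, or of Celsr and a number, with 1 cadherin symbol left out by the rule. They are 93 of 30869 symbols and are read by 146 of 45281 probes. Each gene is represented by the probe with the brightest mean signal over all arrays, and 32 members have several probes.

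All cells were ESD3, an embryonic stem cell line of strain 129s2/SvPas. Control cells carried an shRNA against luciferase and HPRT-knockdown cells an shRNA against HPRT, both brought in by a virus, and both were grown on mouse embryo fibroblast feeders and taken through a dopaminergic differentiation protocol. The stages were undifferentiated cells (ES), spherical neural masses (SNM) and the final neuronal stage, which gives 6 conditions with 3 Illumina arrays each. The 3 arrays of a condition share RNA pooled from replicate cultures, so p-values measure the spread between arrays, and a called change is a difference between RNA pools. Signals are given as normalized log2 signals, differences as log2 fold changes with their standard error (SE), and a member counted as called where its adjusted p-value lay below 0.05 and its change reached 1.5-fold.

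Cadherins are calcium-dependent membrane proteins that join cells to each other. Type I and type II classical cadherins bind catenins inside the cell and thereby the actin cytoskeleton, and epithelial and neural tissues are known for a switch from Cdh1 (E-cadherin) to Cdh2 (N-cadherin). The clustered protocadherins are made from the neighbouring alpha, beta and gamma gene clusters, and the combination a neuron makes is known to mark its own branches, while the delta protocadherins are single genes with roles in axon growth and sorting of cells. The Celsr proteins are large cadherins with a membrane domain of the G-protein-coupled receptor kind, and they act in planar cell polarity and axon guidance.

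The targeted gene, measured as Hprt1, was lower in the knockdown cells with log2 fold changes of -4.09 in ES, -1.76 in SNM and -4.45 in neuronal cells. Between 18827 and 22202 probes were detected per array, and arrays of a condition correlated at 0.989 to 0.996. Of 11 neuron markers, 9 were detected on all arrays in control and 8 in knockdown cells labelled neuronal; Tubb3 was detected on none of those knockdown arrays, and Snap25 and Nefl on none of either. The neuron markers summed to 11100 to 12100 in control and 5480 to 6350 in knockdown cells there, and 6 of 9 tested were lower and 0 higher in knockdown cells. Of 12 skeletal muscle markers, 12 were detected in control cells at that stage, with a summed signal of 102000 to 104000, against 6 and a summed signal of 323 to 534 in knockdown cells. The 12 oligodendrocyte markers summed to 8170 to 8470 in control and to 88600 to 93900 in knockdown cells there. In such bulk samples fewer cells of a type and less RNA per cell cannot be told apart.

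Cdh15 (M-cadherin) had the largest change of any member between knockdown and control cells. It is the cadherin of muscle precursors, and the sequence upstream of its start is shown because E-boxes, the sites that muscle bHLH factors are known to bind, can be read in it. The RefSeq promoter table of build GRCm38.p6 gives the 250 bases before the start of Cdh15 on the plus strand at chr8:122848124-122848373. Capitals mark the E-box, searched as CANNTG on both strands, where it reads alike.
Cdh15: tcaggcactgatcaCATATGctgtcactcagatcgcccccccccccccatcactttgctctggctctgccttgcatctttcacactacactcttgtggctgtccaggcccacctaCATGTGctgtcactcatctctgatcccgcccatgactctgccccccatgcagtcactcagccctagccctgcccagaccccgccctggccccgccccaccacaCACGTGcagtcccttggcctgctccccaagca
The window holds 3 matches. Of 32851 windows of this length in the table, 12.2% hold at least as many and 66.2% hold any, so a match is common and describes letters, not a bound site. The table holds such a sequence for 24 of the 93 members.

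Fewer members were measurable in undifferentiated cells than at the later stages. A member is called detected where its probe passed a detection p-value of 0.05 on all 3 arrays of a condition. So detected were 10 members in control ES, 43 in control SNM and 47 in control neuronal cells, against 11, 48 and 44 in knockdown cells. Over the 6 conditions, 54 members were detected in at least 1, 7 in all, and 22 on no array at all.

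Of the 22 clustered beta protocadherins 0 were detected in ES cells, 15 in SNM cells of either kind and 16 in neuronal cells of either kind. In their order along the cluster, Pcdhb1, Pcdhb4, Pcdhb9, Pcdhb13, Pcdhb15 and Pcdhb18 were fully detected in no condition, and Pcdhb5 at the neuronal stage. The other 15 were detected in all 4 conditions of differentiated cells. Of 12 alpha members 4 were detected in some condition, and of 20 gamma members 5.

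**Figure D1:**
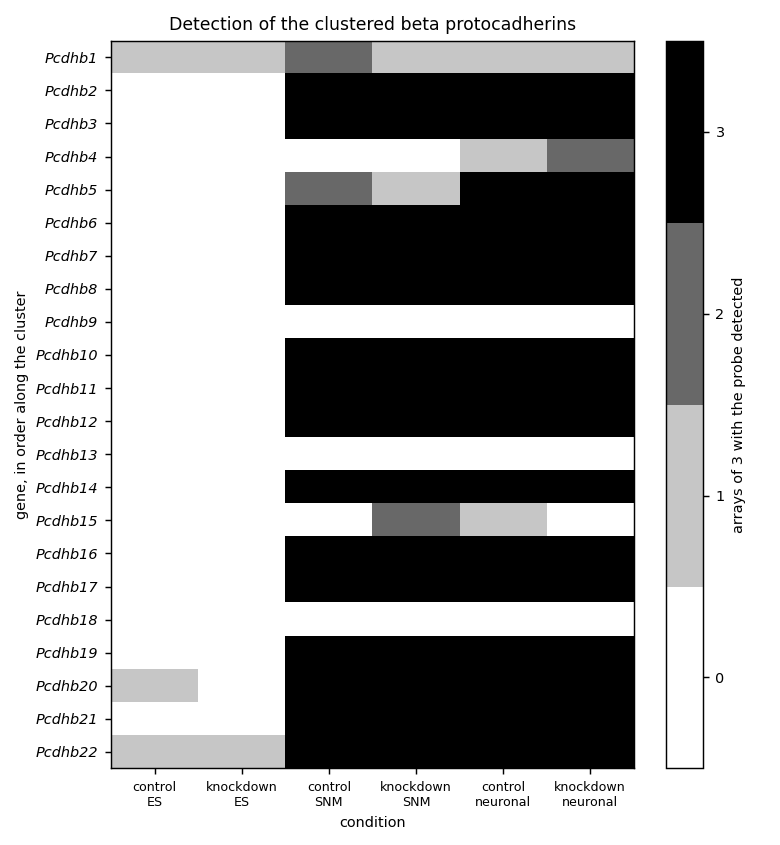
Number of arrays out of 3 (grey scale) on which each clustered beta protocadherin (rows, in order along the cluster) was detected, for each of the 6 conditions (columns). The white or light cells of the ES columns turn black in the differentiated columns for 15 genes, while 6 genes are never black.

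**Figure D2:**
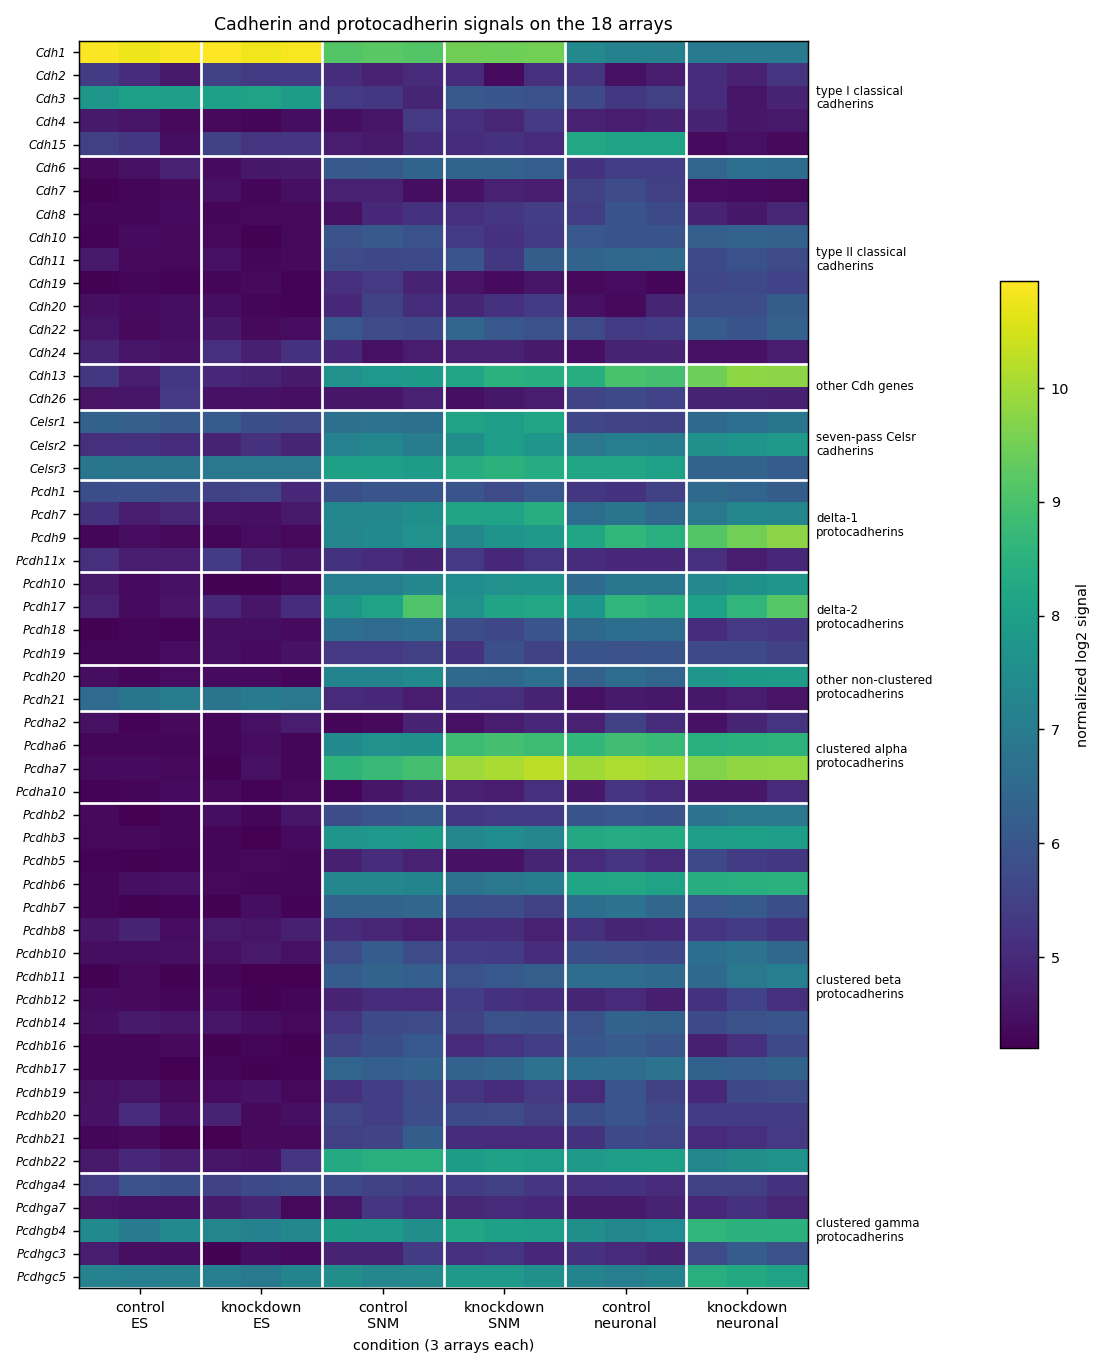
Normalized log2 signal (colour) of the 54 members detected in at least 1 condition (rows, by group) on the 18 arrays (columns, 3 per condition). Cdh1 and Cdh3 are brightest at the ES stage, and most protocadherin rows are dark there and brighter in SNM and neuronal cells.

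Between ES and SNM cells most tested members rose. In control cells 43 members were tested, of which 32 rose and 3 fell, where 49.1% of all probes tested were called, 23.7% higher and 25.4% lower. In knockdown cells 49 were tested, and 37 rose and 3 fell, where 57.3% of all were called, 26.4% higher and 30.9% lower. The arrays of the stages did not overlap in 39 of 43 members in control and 47 of 49 in knockdown cells, against 77.2% and 80.7% of all probes tested. Of these members, 33 in control and 38 in knockdown cells passed the detection filter through the SNM stage alone, so a rise was built into their being tested. The called sets shared 31 rises and 3 falls. Without background correction and with scaling to the 75th percentile, 21 members were called in control and 22 in knockdown cells; the 3 falls remained in number.

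The falls in both cell types were Cdh3, Pcdh21 and Cdh1. Cdh1, the E-cadherin of epithelial and embryonic stem cells, read 10.90, 10.78 and 10.91 on the control ES arrays, 9.13, 9.21 and 9.13 on the control SNM arrays and 7.37, 7.15 and 7.13 on the control neuronal arrays. On knockdown arrays it read 10.94, 10.80 and 10.88, then 9.49, 9.44 and 9.51, then 6.99, 6.97 and 6.97. The stages did not overlap in either cell type, and the log2 fold change was -1.71 (SE 0.07, adjusted p = 1.1e-12) then -1.94 (SE 0.07, adjusted p = 6.71e-13) in control and -1.40 (SE 0.07, adjusted p = 1.09e-11) then -2.50 (SE 0.07, adjusted p = 4.08e-14) in knockdown cells. A second Cdh1 probe was detected on no array, with condition means of 4.27 to 4.36, and gives no second measurement.

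Cdh3 (P-cadherin) is the neighbour of Cdh1 on chromosome 8, with 0 protein-coding genes between them. It read 7.78, 8.0 and 7.94 on control ES arrays and 5.34, 5.30 and 4.91 on control SNM arrays, a log2 fold change of -2.73 (SE 0.14, adjusted p = 1.69e-11). In knockdown cells the log2 fold change was -2.02 (SE 0.14, adjusted p = 6.08e-10). Over the 18 arrays the Cdh1 and Cdh3 probes correlated at 0.869, a description of arrays that share conditions. The third fall was Pcdh21, now named Cdhr1, a photoreceptor cadherin, at -1.91 (SE 0.12, adjusted p = 2.66e-10) in control and -1.84 (SE 0.12, adjusted p = 3.18e-10) in knockdown cells.

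For Cdh2, the N-cadherin of neural tissue, no change was called, but its probes read near background. Its brighter probe read 5.39, 5.05 and 4.66 in control ES, 5.07, 4.83 and 4.99 in control SNM and 5.24, 4.50 and 4.74 in control neuronal cells. In knockdown cells it read 5.51, 5.34 and 5.38, then 5.03, 4.39 and 5.13, then 5.08, 4.81 and 5.22. It was detected on 2 or 3 arrays of each condition, knockdown and control arrays overlapped throughout, and Cdh2 was called in no comparison. A second Cdh2 probe was detected on no array, with condition means of 4.32 to 4.46. The brighter probe lay close to this level, so a change of Cdh2 could be missed here.

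The clustered alpha gene Pcdha7 had the largest rise in both cell types, and Pcdha6 the next in knockdown cells. Pcdha7 read 4.39, 4.40 and 4.34 in control ES cells, where it was detected on no array, and 8.58, 8.77 and 8.94 in control SNM cells, which is at least 14.9-fold higher (adjusted p = 8.96e-16). In knockdown cells it went from 4.25, 4.49 and 4.29, again not detected, to 9.95, 10.09 and 10.27, at least 36-fold higher (adjusted p = 2.01e-17). Such bounds compare the bright condition with the lowest signal that counted as detected on each dim array. Pcdha6 was at least 6.34-fold higher in control (adjusted p = 9.33e-16) and, in knockdown cells, higher by at least 15.2-fold (adjusted p = 1.19e-17). The Pcdha6 and Pcdha7 probes correlated at 0.998 over the 18 arrays, and since the alpha genes share constant exons and no probe sequence was used here, reads of these genes cannot be told apart.

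In the beta cluster 14 of 15 tested members rose in each cell type, where 23.7% of all probes tested rose in control and 26.4% in knockdown cells. All of them passed the detection filter through the SNM stage alone, so a rise was built into their being tested. Pcdhb22 rose in control cells by 3.60 (SE 0.14, adjusted p = 1.04e-12), with 1 of 3 ES arrays detected, and Pcdhb3 was at least 7.63-fold higher (adjusted p = 2.83e-16). Beta genes are near-identical copies in part, so which copy a probe reads is uncertain.

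Among the delta protocadherins Pcdh17 was at least 10.9-fold higher in SNM than in ES control cells (adjusted p = 2.72e-08). In knockdown cells Pcdh7 was at least 9.71-fold higher (adjusted p = 2.91e-13) and Pcdh10 at least 6.31-fold higher (adjusted p = 8.19e-14). Cdh13 (T-cadherin), which is held by a lipid anchor and lacks the catenin-binding tail, rose by 3.52 in knockdown cells (SE 0.17, adjusted p = 8.28e-12), with 1 of 3 ES arrays detected. In the type II group 6 of 6 tested cadherins rose in control and 6 of 7 in knockdown cells, where 23.7% and 26.4% of all probes rose. All of these were tested through the SNM stage alone, which built in a rise. In control cells they were Cdh6, Cdh10, Cdh11, Cdh19, Cdh20 and Cdh22, all detected on no control ES array, with lower bounds from 1.18-fold (Cdh19) to 2.48-fold (Cdh6).

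**Figure D3:**
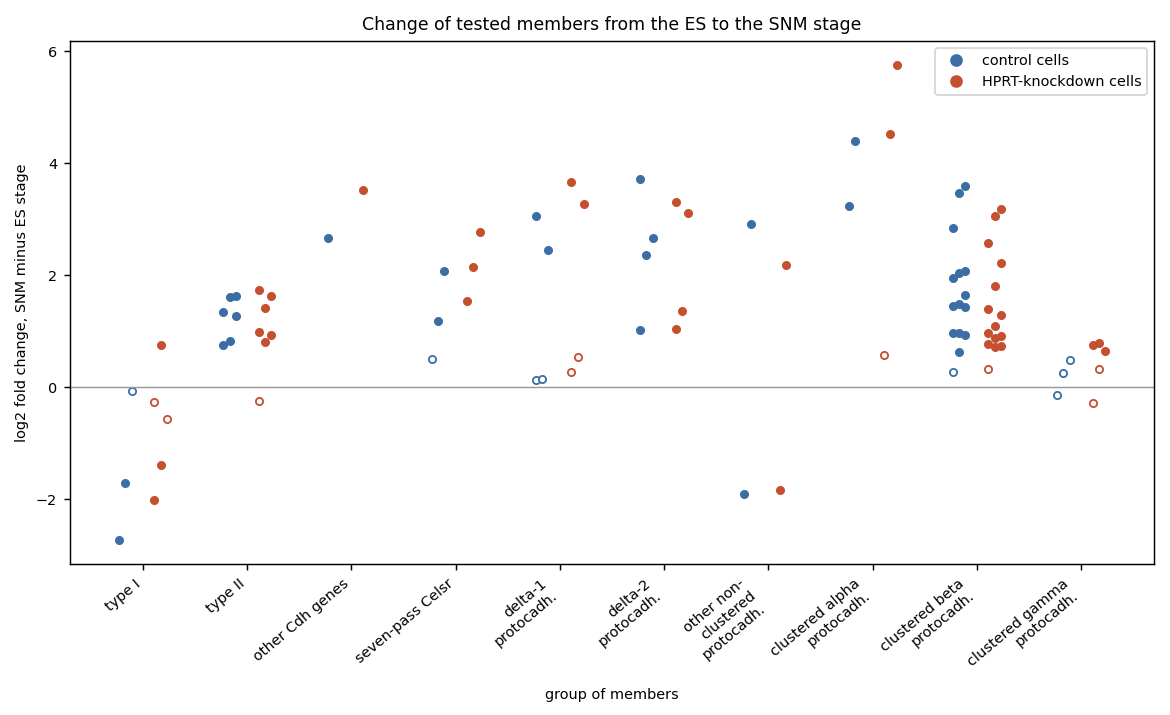
Log2 fold change of SNM over ES cells (vertical axis) of each tested member, by group (horizontal axis), in control (blue) and HPRT-knockdown cells (red); filled points were called and open points were not. Apart from Cdh1, Cdh3 and Pcdh21 every filled point lies above 0, and the alpha protocadherins lie highest; many members were not detected in ES cells, so the heights of their points are fitted values and not bounds.

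Between SNM and neuronal cells members moved both ways. In control cells 51 members were tested and 12 rose and 8 fell, where 29.4% of all probes tested were called, 14.3% higher and 15.1% lower. In knockdown cells 52 were tested and 13 rose and 7 fell, where 28.7% were called, 13.9% higher and 14.8% lower. The arrays of the stages did not overlap in 29 of 51 and 33 of 52 members, against 65.2% and 63% of all probes tested. The called sets shared 3 rises and 3 falls. Cdh15 rose in control cells but fell with the knockdown, and Cdh19, Cdh20 and Pcdh20 did the reverse. In control cells 8 members passed the detection filter through the neuronal and 4 through the SNM stage alone, in knockdown cells 4 and 8. Cdh15 and Cdh19 were among these in both cell types and Cdh20 in control cells, so the filter favoured the direction of those calls. Pcdh20 was detected on all arrays of both stages.

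In control cells the rises were led by Cdh15 at 3.33 (SE 0.19, adjusted p = 2.26e-10), with 1 of 3 SNM arrays detected. Pcdha7 rose by 1.26 (SE 0.10, adjusted p = 1.53e-08), Cdh13 by 1.03 (SE 0.17, adjusted p = 7.31e-05) and Pcdh9, a delta protocadherin, by 1.01 (SE 0.16, adjusted p = 4.52e-05). Celsr1 changed by -1.12 (SE 0.10, adjusted p = 4.8e-08) and Pcdh20 by -0.88 (SE 0.08, adjusted p = 1.51e-07).

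In knockdown cells the rises were led by Pcdh9 at 1.86 (SE 0.16, adjusted p = 4.49e-08), Pcdhb6 at 1.58 (SE 0.08, adjusted p = 6.03e-11) and Pcdhb2 at 1.5 (SE 0.08, adjusted p = 1.85e-10). In the beta cluster 6 of 16 tested members rose and 0 fell, where 13.9% of all probes rose and 14.8% fell. After Cdh1 the falls were led by Celsr3 at -2.14 (SE 0.07, adjusted p = 1.88e-13), Celsr1 at -1.38 (SE 0.10, adjusted p = 3.65e-09) and Cdh3 at -1.14 (SE 0.14, adjusted p = 1.98e-06). Cdh3 was detected on 2 of 3 knockdown neuronal arrays. Its fall lost the call under quantile normalization without background correction (-0.55) and averaged over its probes (-0.42).

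No member was called between knockdown and control cells at the ES stage. Of 12 members tested, 0 were called by limma, where 1.67% of all probes were called, 0.516% higher and 1.16% lower. With so few members tested, 0 called does not set them apart from that share. The t-test of the study's methods also called 0. An unadjusted p-value under 0.05 in the limma fit was found for 2 of the 12, against 4547 of 18411 probes tested. The arrays of both cell types did not overlap in 2 of the 12, against 31.6% of all probes. The lowest adjusted p-values were those of Pcdh1 at -0.45 (SE 0.14, adjusted p = 0.05) and Celsr1 at -0.30 (SE 0.10, adjusted p = 0.061), both also under the fold required.

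At the SNM stage 6 of 50 members tested were higher and 9 lower in knockdown cells, where 19.9% of all probes tested were called, 11% higher and 8.9% lower. Of the 50, 7 passed the detection filter through knockdown cells alone and 2 through control cells alone, with Cdh19 among the latter. The median log2 fold change was 0.11 over the members and -0.038 over all probes, and the arrays of both cell types did not overlap in 25 of the 50 members, against 56.1% of all probes. The rises were Celsr1, Pcdha6, Pcdha7, Pcdh7, Cdh3 and Cdh13, and the falls were Pcdh18, Pcdh20, Cdh10, Cdh19 and the beta members Pcdhb2, Pcdhb7, Pcdhb10, Pcdhb16 and Pcdhb21. None of the 9 falls was called without background correction or with a background offset of 50; 4 rises, Celsr1, Pcdha6, Pcdha7 and Pcdh7, kept the call in these settings, and the split of 6 higher and 9 lower became 4 and 0. At a minimum change of 2-fold 3 rises were called.

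Celsr1 changed most. The astrocyte and radial glia markers were also higher with the knockdown at this stage, with a summed signal of 10400 to 10900 in control and 19800 to 20900 in knockdown cells and 6 of 9 called, as were 8 of 11 tested skeletal muscle markers, at 2810 to 2890 against 5000 to 5360; the part of either list in the rises was not tested. Celsr1 read 6.70, 6.75 and 6.69 on control and 8.08, 7.95 and 8.15 on knockdown arrays, a log2 fold change of 1.35 (SE 0.10, adjusted p = 1.19e-08) with every knockdown array above every control array. Pcdha7 read 8.58, 8.77 and 8.94 on control and 9.95, 10.09 and 10.27 on knockdown arrays, a log2 fold change of 1.34 (SE 0.10, adjusted p = 1.61e-08). Pcdha6 read 7.42, 7.60 and 7.58 against 8.81, 8.95 and 8.81, a log2 fold change of 1.33 (SE 0.07, adjusted p = 5.18e-10). For all these genes the groups lay apart. Averaged over its probes, Pcdha6 changed by 0.48 and was not called. Its other probes were detected on no array, so this average mixes its signal with background.

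Pcdh7 read 7.29, 7.35 and 7.56 on control and 8.14, 8.11 and 8.39 on knockdown arrays, a log2 fold change of 0.81 (SE 0.14, adjusted p = 0.00013), and 0.51, not called, over all its probes. Cdh3 read 5.34, 5.30 and 4.91 against 6.08, 6.0 and 5.89, a log2 fold change of 0.81 (SE 0.14, adjusted p = 0.000122), and 0.23, not called, over all its probes. The other Cdh3 probes were detected on no control SNM array, and none on all 3 knockdown SNM arrays. The epithelial markers, which do not include Cdh3, moved with it, with a summed signal of 628 to 807 in control and 3180 to 3620 in knockdown cells and 5 of 7 tested markers higher; their part in the result was not tested. Cdh1 differed by 0.32 (SE 0.07, adjusted p = 0.000987), under the fold required.

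Pcdh18, a delta protocadherin, read 6.65, 6.55 and 6.67 on control and 5.78, 5.66 and 5.99 on knockdown arrays, a log2 fold change of -0.81 (SE 0.09, adjusted p = 8.99e-07). Pcdh20 read 7.23, 7.21 and 7.42 against 6.54, 6.49 and 6.65, a log2 fold change of -0.73 (SE 0.08, adjusted p = 2.47e-06). Cdh10, a type II cadherin of neurons, read 5.93, 6.09 and 5.90 against 5.35, 5.16 and 5.39, a log2 fold change of -0.67 (SE 0.07, adjusted p = 1.41e-06). The arrays of both groups did not overlap for any of these genes. Cdh19 was detected on no knockdown array and was at least 1.34-fold lower there (adjusted p = 4.22e-05). The oligodendrocyte markers moved with it, summing to 13000 to 13600 in control and 4500 to 4900 in knockdown cells, as did the neural crest and Schwann cell markers, a list that holds Cdh19, at 5790 to 6620 against 2650 to 2990; their part in the result was not tested. Of the beta falls, Pcdhb21 at -0.72 (adjusted p = 0.0011) was no longer called without control array 3 (-0.50), and Pcdhb7 at -0.63 (adjusted p = 8.79e-05) without knockdown array 3 (-0.54).

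At the neuronal stage 16 of 51 members tested were higher and 10 lower in knockdown cells, where 27.4% of all probes tested were called, 13.9% higher and 13.5% lower. The median log2 fold change was 0.26 over the members and 0.014 over all probes, and the arrays of both cell types did not overlap in 41 of the 51 members, against 62.8% of all probes. All 3 Celsr members were called, 7 of 8 tested type II cadherins and 3 of 5 tested gamma protocadherins, which rose, against 0 of 3 tested alpha and 4 of 16 tested beta members. Of the 51 members, 4 passed the detection filter through knockdown cells alone, Cdh19 and Cdh20 among them. Another 7 passed through control cells alone, among them Cdh3, Cdh7, Cdh8 and Cdh15. For these the filter favoured the direction of the call, so the type II count is not a result about that group. With offset 50 the split was 13 higher and 3 lower, and scaled to the 75th percentile without background correction it was 11 higher and 4 lower.

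Cdh15 read 8.24, 8.12 and 8.10 on control and 4.41, 4.49 and 4.38 on knockdown arrays, where it was detected on none. With the knockdown it was at least 10.6-fold lower (adjusted p = 4.14e-11). The skeletal muscle markers, which do not include Cdh15, moved with it as given above, with 11 of 12 called lower and Tnnt3, Myod1, Myog and Ckm detected on no knockdown array; their part in the result was not tested.

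Celsr3 and Celsr1 moved in opposite directions. Celsr3, needed for the growth of axon tracts, read 8.19, 8.18 and 8.05 on control and 6.33, 6.35 and 6.17 on knockdown arrays, a log2 fold change of -1.86 (SE 0.07, adjusted p = 6.21e-13). The neuron markers moved with it as given above, with a median log2 fold change of -1.971 over the 9 tested; their part in the result was not tested. Celsr1 read 5.63, 5.59 and 5.54 against 6.54, 6.67 and 6.81, a log2 fold change of 1.09 (SE 0.10, adjusted p = 6.73e-08). Celsr2 was higher by 0.69 (SE 0.10, adjusted p = 3.06e-05). Of 14 planar polarity partners of the Celsr proteins 12 were tested at this stage and 0 were called by limma in any comparison of knockdown and control cells.

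Among the type II cadherins Cdh6, Cdh19, Cdh20 and Cdh22 were higher and Cdh7, Cdh8 and Cdh11 lower. Cdh20 read 4.50, 4.38 and 4.89 on control arrays, of which 1 was detected, and 5.78, 5.80 and 6.20 on knockdown arrays, a log2 fold change of 1.34 (SE 0.16, adjusted p = 2.61e-06). Cdh19, a cadherin of the neural crest and of Schwann cell precursors, read 4.36, 4.43 and 4.32 on control arrays, with none detected, and 5.64, 5.69 and 5.55 on knockdown arrays, at least 1.89-fold higher (adjusted p = 4.28e-09). Cdh6 read 5.20, 5.44 and 5.46 against 6.41, 6.66 and 6.58, a log2 fold change of 1.18 (SE 0.12, adjusted p = 2.79e-07). In none of these genes did the groups overlap.

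The 12 oligodendrocyte markers were all called higher in knockdown cells at this stage. The 7 neural crest and Schwann cell markers, Cdh19 among them, summed to 2730 to 2820 in control and 24500 to 28600 in knockdown cells, with Erbb3 on no array of either. The part of either list in the rises of Cdh6, Cdh19 and Cdh20 was not tested. Cdh7 read 5.53, 5.77 and 5.47 on control arrays and 4.42, 4.39 and 4.34 on knockdown arrays, with none detected, at least 1.79-fold lower (adjusted p = 5.32e-08). With an offset of 50 its log2 fold change was -0.58 and not called, the only one of the 10 named at this stage lost without background correction or with that offset.

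Pcdh20 read 6.27, 6.57 and 6.39 on control and 7.78, 7.86 and 7.92 on knockdown arrays, a log2 fold change of 1.45 (SE 0.08, adjusted p = 2.86e-10). Pcdh18 read 6.45, 6.64 and 6.62 against 5.07, 5.32 and 5.26, a log2 fold change of -1.35 (SE 0.09, adjusted p = 8.81e-10). The gamma protocadherins Pcdhgb4 and Pcdhgc5 rose by 1.12 (SE 0.11, adjusted p = 2.38e-07) and 1.09 (SE 0.10, adjusted p = 1.5e-07). Averaged over its probes Pcdhgc5 changed by 0.55 and was not called, but its other probe was detected on no array. The Pcdhgb4 and Pcdhgc5 probes correlated at 0.964 over the arrays and, like the alpha genes, the gamma genes share constant exons. Of the delta protocadherins, Pcdh9 rose by 1.04, Pcdh1 by 1.03 and Pcdh10 by 0.83.

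**Figure D4:**
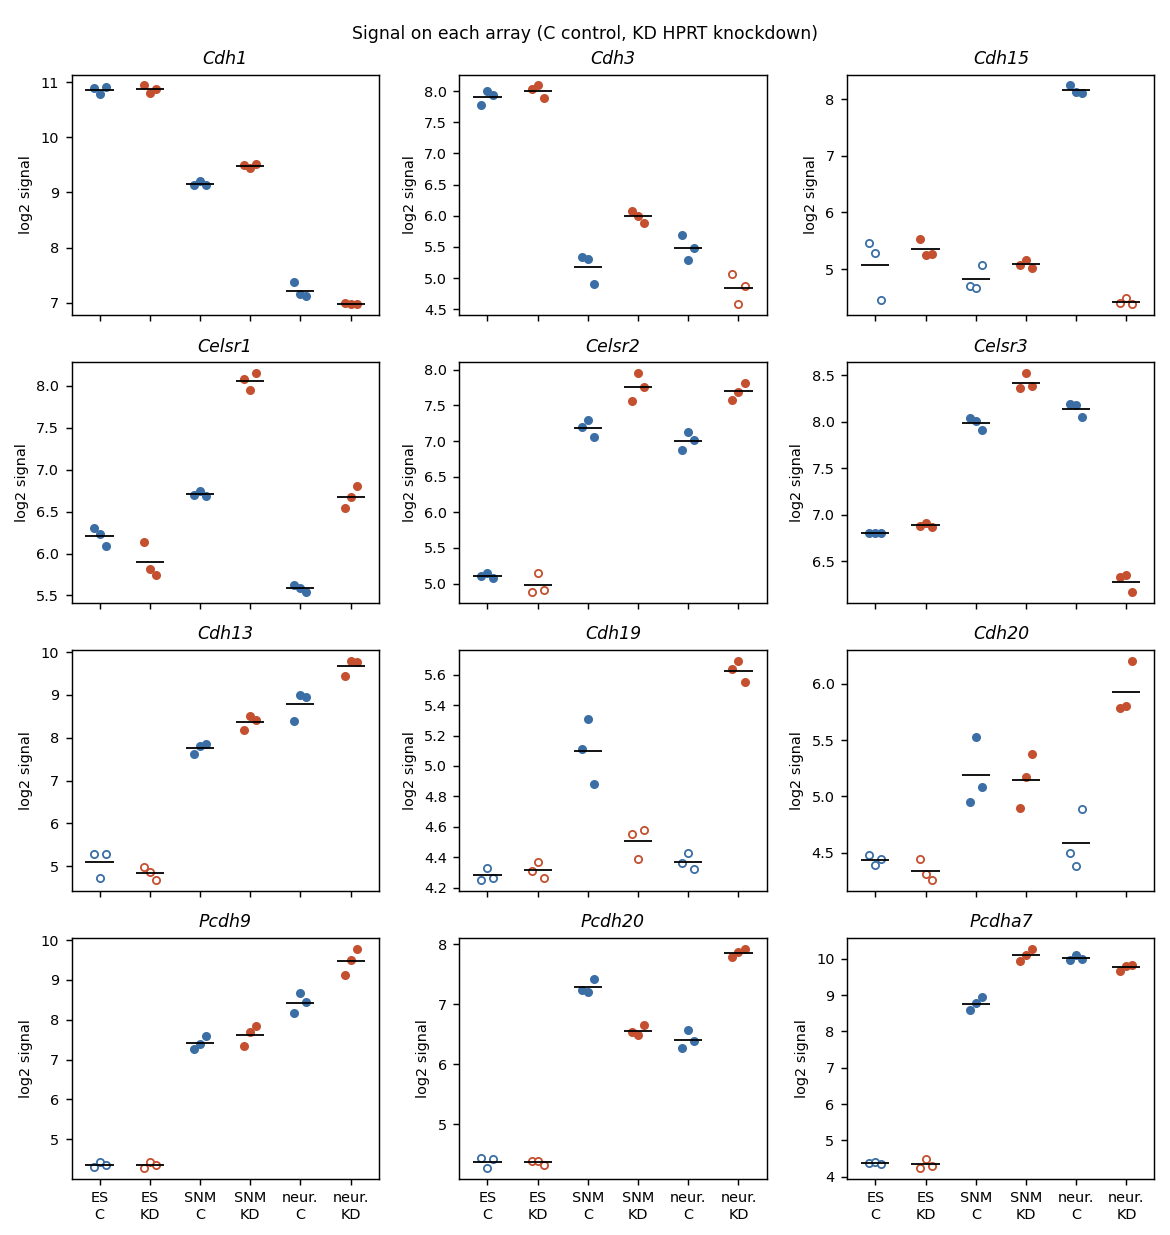
Normalized log2 signal on each of the 18 arrays (points) for 12 members, with the condition mean as a line; blue is control, red is HPRT knockdown, and open points mark conditions where not all 3 arrays were detected. Axes differ between panels and do not start at 0; Cdh15 stands high in control neuronal cells alone among the 6 conditions, and Celsr1 falls from SNM to neuronal cells in both cell types.

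The effect of the knockdown changed between stages. Between ES and SNM cells the effect itself differed in 16 of 50 members, 8 higher and 8 lower, where 21.3% of all probes were called, 11.7% higher and 9.59% lower. Without background correction or with an offset of 50 it was 5 higher and 1 lower. Of the 16, only Celsr1, Celsr2, Cdh3, Cdh13 and Pcdh7 were detected on any ES array. For the others no ES effect could be measured, so their difference restates the SNM effect. Between SNM and neuronal cells the effect of the knockdown differed in 23 of 54, 14 higher and 9 lower, where 28.6% were called, 13.7% higher and 14.8% lower. Called in both stages were 2 rises and 3 falls. Cdh3 was higher in SNM and lower in neuronal cells, while Cdh19, Pcdh20, Pcdhb2 and Pcdhb10 were lower and then higher. The SNM calls of all these members were lost without background correction or with an offset of 50.

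Pcdh20 showed the largest positive difference, with an effect of -0.73 in SNM and 1.45 in neuronal cells. Pcdha7 and Pcdha6 were higher at the SNM stage and at -0.26 and -0.24 at the neuronal stage, where they were not called. Celsr3 stood at 0.43 and then -1.86. Pcdhb2 and Pcdhb10, whose probes correlated at 0.98, stood at -0.61 and -0.59 and then at 0.87 each.

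**Figure D5:**
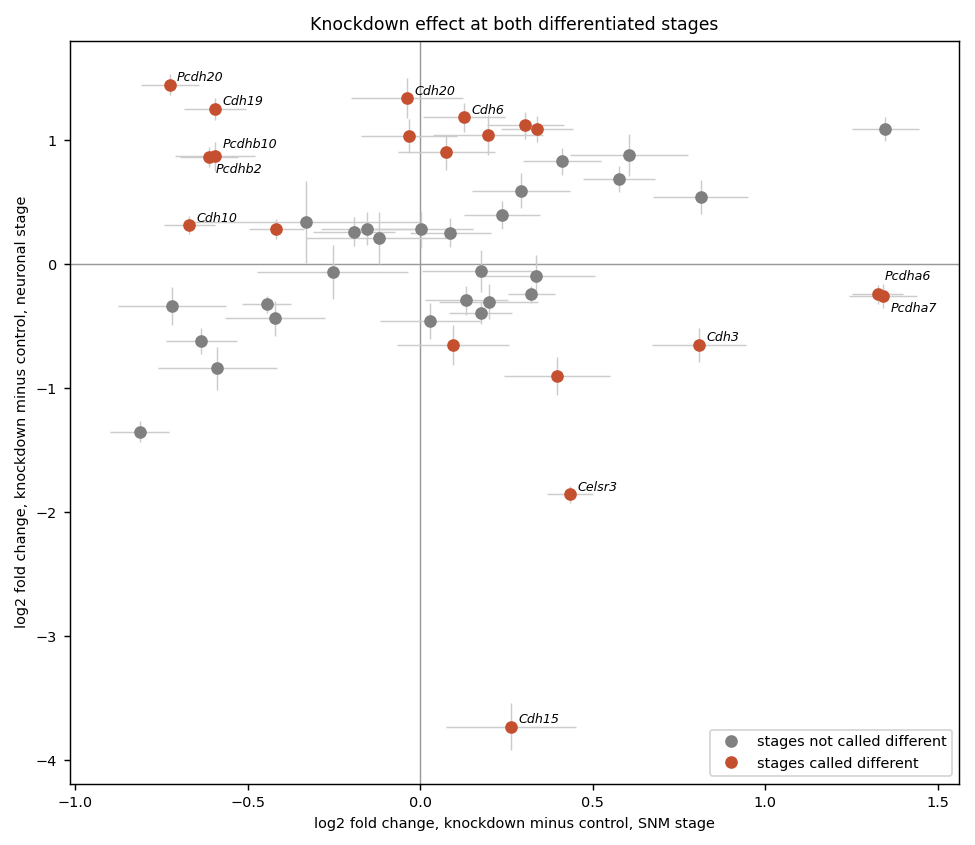
Log2 fold change of knockdown against control cells in SNM (horizontal axis) and in neuronal cells (vertical axis) for members tested at both stages, with bars of 1 SE; red points are members whose effect was called different between the stages. Pcdh20, Cdh19, Pcdhb2 and Pcdhb10 lie at the upper left and Cdh3 at the lower right, and Cdh15 lies lowest; its fitted value rests on knockdown neuronal arrays where it was not detected, as does that of Cdh19 on control neuronal and knockdown SNM arrays.

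Partner genes of the cadherins were counted in the same fit, first at the neuronal stage. The counts are of array symbols, and some genes stand under both an older and a newer symbol, such as Catnb and Ctnnb1 or Zfhx1b and Zeb2. Of 16 tested catenins and junction linkers 4 were higher and 2 lower (37.5%, median 0.119), where 27.4% of all probes tested were called with a median of 0.014; they were led by Ctnnal1, an alpha-catenin relative, at 1.73 and Pkp4, a p120 catenin relative, at 1.26, while Pvrl3, a nectin, was at -0.85. Of 19 tested repressors and proteases of cadherins 6 were higher and 4 lower (52.6%, median 0.183), led by Zeb2 at 1.97 (SE 0.35), Snai2 at -1.51 and Snai1 at -1.46, all repressors of Cdh1. Of 8 tested genes on a list of atypical and desmosomal cadherins, calsyntenins and the receptor Ret, Fat4 alone was called (12.5%), at -1.80.

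At the SNM stage the catenin list had 1 higher and 2 lower of 16, or 18.8% against 19.9% of all probes tested, which were Ctnnd2 at 0.74, Plekha7 at -0.61 and Ctnnal1 at -0.61. Of 8 tested genes on the list of atypical and desmosomal cadherins, calsyntenins and Ret, 2 were higher (25%), the desmosomal cadherin Dsg2 by 2.01 and Fat1 by 0.69. Of 18 repressors and proteases 3 were called (16.7%), of which Mmp3 was at -2.27, Zeb2 at -0.93 and Twist2 at 0.79. At the ES stage Psen2, a presenilin, was the only gene called of these lists, at 0.71.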

How the data were processed

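Illumina MouseWG-6 v2 arrays were used. The deposited table gives the authors' signal intensity per probe and array, without normalization, and a detection p-value; 72 columns of per-sample values named by chip were not used. Signals were background-corrected (offset 16), quantile-normalized and put on a log2 scale with neqc (limma 3.58.1, R 4.3.3); the deposited values themselves are not log2. A single limma model of 6 conditions on 18 arrays gave all comparisons, two-sided, with Benjamini-Hochberg adjustment over every probe that passed detection (p-value below 0.05) on the 3 arrays of any condition in the comparison. It was tested on simulated data. An exact permutation test of 3 against 3 arrays cannot give less than 0.1. Array numbers are from sample titles. Equal numbers correlated at 0.486, 0.108 and 0.489 in knockdown and control SNM arrays, where unequal numbers reached 0.191. In SNM and neuronal knockdown arrays they correlated at 0.522, 0.139 and 0.511, against at most -0.002. In every other comparison at least 1 pair of equal numbers lay under 0.1. Knockdown and control neuronal arrays gave 0.605, 0.094 and 0.325, against up to 0.402 for unequal numbers.

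The members and lists were chosen with earlier results of these data known. Named are Cdh1 and Cdh2, the called members with the largest changes, up to 10 per stage and 5 per direction and step, and up to 3 called genes per partner list; other called members are named in counts. A marker gene is not reported here and was left out of its list. Alternatives were quantile normalization or 75th percentile scaling without background correction, offset 50, no filter, 2-fold, mean over probes, only the arrays compared, the replicate block, the study's t-test and leaving out each array. Of 93 members 83 matched a RefSeq gene ID.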

Additional observations from a re-analysis of the deposited data

Results flagged for a closer look

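The effect of the knockdown, knockdown minus control, differed between stages by the interaction test in the following members; values are the difference in log2 fold change. From the SNM to the neuronal stage it rose for Pcdh20 (2.17), Cdh19 (1.85), Pcdhb2 (1.48), Pcdhb10 (1.46), Cdh20 (1.38), Pcdh1 (1.07), Cdh6 (1.06), Cdh10 (0.98), Pcdh9 (0.85), Pcdhgc3 (0.83), Pcdhgb4 (0.81), Pcdhgc5 (0.75), Pcdhb6 (0.70) and Pcdhb5 (0.64). It fell for Cdh15 (-3.99), Celsr3 (-2.29), Pcdha7 (-1.60), Pcdha6 (-1.57), Cdh3 (-1.46), Cdh8 (-1.30), Cdh7 (-1.21), Cdh11 (-0.75) and Cdh26 (-0.72). From the ES to the SNM stage it rose for Celsr1 (1.65), Pcdha7 (1.37), Pcdha6 (1.29), Pcdh7 (1.21), Cdh13 (0.87), Cdh3 (0.71), Celsr2 (0.71) and Pcdh10 (0.65). It fell for Pcdh18 (-0.99), Pcdhb2 (-0.76), Pcdhb21 (-0.72), Pcdh20 (-0.72), Pcdhb10 (-0.69), Pcdhb7 (-0.68), Cdh10 (-0.64) and Cdh19 (-0.63). Without 1 array some of these lost the call: Pcdh10 without control ES array 1 (0.57), Cdh10, Cdh19 and Pcdhb10 without control SNM array 2 (-0.58, -0.52 and -0.56), Cdh10 and Cdh19 without knockdown SNM array 2 (both -0.57), Cdh3 and Pcdhb21 without control SNM array 3 (0.57 and -0.51) and Pcdhb10 without knockdown SNM array 3 (-0.57), all for SNM minus ES. For neuronal minus SNM they were Cdh11 without knockdown SNM array 3 (-0.56) and Pcdhb5 without knockdown SNM array 1 (0.58), knockdown neuronal array 1 (0.53) or control SNM array 2 (0.56). Cdh11, Cdh26, Pcdhb5 and Pcdhgc3 also lost this call in both settings without background correction and with offset 50. Cdh10 and Pcdhb6 lost it in both settings without background correction, Pcdh1 with the quantile one and Cdh7 with offset 50. Averaged over probes, Cdh3, Cdh8, Cdh26, Pcdha6, Pcdhb6, Pcdhgc3 and Pcdhgc5 lost it. All differences listed are fitted values. Cdh15 and Cdh7 were detected on no knockdown neuronal array, and Cdh19 on no control neuronal, knockdown SNM or ES array. Pcdha6, Pcdha7, Pcdh10, Pcdh18, Pcdh20, Cdh10, Pcdhb2, Pcdhb7, Pcdhb10 and Pcdhb21 were detected on no ES array of either cell type and Pcdh7 on no knockdown ES array, so for these the size of the difference is not set by signals above background on every side.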

How the results depend on the processing

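Members called are counts. Quantile normalization without background correction, 75th percentile scaling without it and offset 50 gave 4, 4 and 4 at the SNM stage (15 as reported), 14, 15 and 16 at the neuronal stage (26), 26, 22 and 26 from ES to SNM in knockdown cells (40), 9, 10 and 10 from SNM to neuronal in control (20), 10, 11 and 12 in knockdown cells (20), and 6, 6 and 6 for the effect, SNM minus ES (16). In control cells from ES to SNM the percentile scaling gave 21 (35). At 2-fold the counts were 3 at SNM, 13 at neuronal, 7 and 12 from SNM to neuronal in control and knockdown cells, 4 for the effect SNM minus ES and 14 for neuronal minus SNM (23). The mean over probes gave 9 from SNM to neuronal in control cells and 10 for the effect SNM minus ES. Leaving out each array gave 0 at ES, 12 to 14, 24 to 26, 34 to 38 and 41 to 42 from ES to SNM (control, knockdown), 17 to 22 and 19 to 21 from SNM to neuronal, and 13 to 16 and 22 to 26 for the effects. With the replicate block the counts were 0, 15, 26, 35, 40, 20, 21, 16 and 23, so it changed no count by over 1.5 times. Of 1836 values of named members under alternatives 142 lost the call and 0 reversed. These losses fell on 44 of the 105 named pairs of a member and a comparison. The 2-fold minimum lost 31 pairs and quantile normalization without background correction 26. Percentile scaling, offset 50 and the mean over probes lost 23 each. The percentile scaling moved the median of all probes from ES to SNM in knockdown cells from -0.111 to -0.211. Of 29 other probes of members called at the neuronal stage 10 were called alike, 4 were not called, 15 were not tested and 0 were called the other way. The 39 members fully detected in no condition could not be compared.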
